A study of Mus musculus with 12 samples.

Results

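The activity-induced immediate early genes are genes that a neuron transcribes within minutes of strong synaptic input, before any new protein has been made. The set described here held 36 of the 55401 genes in the count table, chosen by symbol from a list of early transcription factors and effectors and matched to Ensembl gene IDs. The rule itself used no measured value, and all 36 had counts high enough to be tested. RNA had been sequenced from the medial prefrontal cortex (mPFC) of male mice, and the stated aim was to find targets and pathways downstream of the serotonin receptor 5-HT6R in the extinction of a conditioned place preference (CPP) for morphine, in which an animal stops preferring a chamber once paired with the drug. Each of 3 groups had 4 libraries: AAV carrying a 5-HT6R knockdown with morphine, AAV carrying a scramble sequence with morphine, and the same scramble AAV with saline. All groups had thus received a virus (AAV, adeno-associated virus), all were sampled after 2 weeks of CPP extinction, and no group combined the knockdown with saline, so the knockdown was compared with its scramble under morphine only. The labels name neither the cells that the virus reached, nor the delay from the last session to the dissection, nor separate animals for the libraries, so a p-value here compares a difference with the spread between libraries, part of which may be technical.

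Immediate early genes respond to calcium entry and to kinases that switch on factors already bound to their promoters, among them CREB at cAMP response elements and serum response factor at CArG boxes. Their products are of a few kinds: transcription factors of the AP-1, EGR and NR4A families, phosphatases and other proteins that end the signal, and proteins that act at the synapse. Most of their mRNAs are short-lived, which is why Fos and Arc are used in the cortex as marks of recently active neurons.

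Promoter windows, from 250 bases before to 50 after an annotated start, were found in RefSeq (GRCm38.p6, the mm10 assembly) for 27 of the 36 genes, 22 with 1 start and 5 with several. Arc, Dusp4, Egr1, Egr3, Ier2, Klf10, Nptx2, Sik1 and Trib1 had no entry. A search of both strands found TGACG, the core of the cAMP response element, in windows of 17 of the 27 genes, or 63.0%, against 23.0% of all 27025 genes with a window. The full element TGACGTCA, which contains that core, was found for 3 of the 27 genes (Btg2, Dusp1 and Maff), or 11.1%, against 2.03% of all genes. A CArG box was found for Dusp5 and Egr2, or 7.41%, against 1.81%, and the EGR site GCGNGGGCG for 8 genes, or 29.6%, against 6.27%. TATAAA, searched on the strand of the gene only, was found for 5 genes, or 18.5%, against 9.77%. The AP-1 site TGANTCA was found for Csrnp1 alone, or 3.70%, against 8.97%. These are matches of letters and not shown to be sites.

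Windows are printed for 6 genes on which the results turn: Fos, Nr4a1 and Npas4, whose levels varied together over the libraries, and Atf3, Ier5 and Dusp5, whose groups stood apart in a comparison. They are written 5′ to 3′ on the strand of the gene, and capitals mark TGACG on either strand (CGTCA on the printed one) and the CArG boxes. Positions count from the start, so that -1 is the last base before it.
Fos, chr12:85473640-85473939, plus strand: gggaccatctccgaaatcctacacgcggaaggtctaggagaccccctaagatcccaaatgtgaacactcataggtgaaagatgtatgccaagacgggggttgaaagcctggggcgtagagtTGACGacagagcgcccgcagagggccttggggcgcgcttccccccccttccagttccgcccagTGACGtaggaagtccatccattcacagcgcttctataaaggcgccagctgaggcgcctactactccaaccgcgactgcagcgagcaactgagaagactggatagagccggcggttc
Nr4a1, chr15:101266596-101266895, plus strand: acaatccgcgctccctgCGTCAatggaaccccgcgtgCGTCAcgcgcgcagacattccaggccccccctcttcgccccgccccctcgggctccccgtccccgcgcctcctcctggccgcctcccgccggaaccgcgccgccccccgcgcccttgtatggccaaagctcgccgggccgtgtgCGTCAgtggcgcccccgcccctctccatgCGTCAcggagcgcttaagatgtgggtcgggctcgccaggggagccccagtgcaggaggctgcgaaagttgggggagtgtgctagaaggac
Npas4, chr19:4989922-4990221, minus strand: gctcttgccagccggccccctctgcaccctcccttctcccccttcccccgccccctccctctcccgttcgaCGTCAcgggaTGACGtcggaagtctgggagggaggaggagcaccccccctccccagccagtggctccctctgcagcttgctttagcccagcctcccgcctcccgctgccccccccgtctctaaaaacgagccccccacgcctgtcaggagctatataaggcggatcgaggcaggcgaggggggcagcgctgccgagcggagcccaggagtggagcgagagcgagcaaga
Atf3, chr1:191183284-191183583, minus strand: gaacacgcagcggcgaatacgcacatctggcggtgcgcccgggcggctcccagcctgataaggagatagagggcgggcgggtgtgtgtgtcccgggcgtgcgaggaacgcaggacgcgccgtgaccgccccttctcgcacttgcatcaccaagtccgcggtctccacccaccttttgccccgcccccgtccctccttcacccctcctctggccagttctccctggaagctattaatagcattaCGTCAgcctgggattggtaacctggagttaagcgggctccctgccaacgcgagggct
Ier5, chr1:155099587-155099886, minus strand: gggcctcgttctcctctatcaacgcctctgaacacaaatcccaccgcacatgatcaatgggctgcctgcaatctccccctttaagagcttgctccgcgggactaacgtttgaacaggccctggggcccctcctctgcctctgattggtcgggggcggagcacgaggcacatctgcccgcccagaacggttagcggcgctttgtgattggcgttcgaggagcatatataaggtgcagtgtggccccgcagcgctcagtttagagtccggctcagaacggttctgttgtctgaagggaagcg
Dusp5, chr19:53528895-53529194, plus strand: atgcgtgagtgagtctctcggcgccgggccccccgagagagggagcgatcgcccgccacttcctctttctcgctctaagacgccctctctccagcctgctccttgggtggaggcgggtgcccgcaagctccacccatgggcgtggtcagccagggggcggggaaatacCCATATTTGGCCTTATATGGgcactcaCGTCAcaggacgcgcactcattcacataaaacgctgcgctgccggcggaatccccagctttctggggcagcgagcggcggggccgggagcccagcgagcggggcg
The core began at -129 and -66 in the Fos window, at -233, -213, -69 and -40 in the Nr4a1 window and at -179 and -169 in the Npas4 window. The Dusp5 window held 1 core, at -55, and 2 CArG boxes next to each other, at -82 and -72. The Atf3 window held 1 core, at -7, and the Ier5 window held neither motif.

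Total counts ran from 41483220 to 65739423 per library, and the lowest count of a gene of the set, that of Atf3 in scramble morphine replicate 4, was 38. Levels are given as CPM, counts as a share of the library size scaled by the TMM method, and values of a group are listed in the order of its replicates: 1, 2, 3 and 5 with knockdown, 1, 3, 4 and 5 with scramble and morphine, and 2, 3, 4 and 5 with scramble and saline. Htr6, the gene of 5-HT6R that the virus targets, averaged 4.77 CPM in knockdown morphine libraries, 5.21 CPM in scramble morphine libraries and 6.17 CPM in scramble saline libraries, and its difference between knockdown and scramble under morphine did not pass the test (log2 fold change -0.13, SE 0.18, adjusted p = 0.823), so the targeted mRNA did not separate the groups. Excitatory neurons of the cortex were present in every library, with summed CPM of their 10 markers from 2196 to 2669 with knockdown, from 2427 to 2761 with scramble and morphine and from 2498 to 2602 with scramble and saline. The share of counts at CT010467.1, annotated as a ribosomal RNA gene, differed between groups, from 4.57 to 9.38% with knockdown, from 2.38 to 3.04% with scramble and morphine and from 3.58 to 5.63% with scramble and saline. The mRNA was measured in whole tissue, where fewer cells that express a gene and less of its RNA per cell cannot be told apart.

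In none of the 3 comparisons did an immediate early gene pass the test over all 21958 genes, taken as a p-value adjusted by the Benjamini-Hochberg method below 0.05. With knockdown against scramble under morphine, 0 of the 36 passed in edgeR, as did 0% of all genes. With knockdown and morphine against scramble and saline, 0 of the 36 passed, against 0.0137% of all genes, and with morphine against saline under scramble 0 of the 36, against 0%. A test for any difference among the 3 groups also called 0 of 36, against 0%. At an unadjusted p below 0.05 edgeR had 3, 4 and 1 of the 36 in the order of the comparisons, against 12%, 9.35% and 3.48% of all genes, and in the test for any difference 3 (Atf3, Ier5 and Dusp5), against 9.2%. DESeq2 called 0.657%, 0.828% and 0.0153% of the genes it tested in the same order and 0.643% for any difference. Of the set it called Atf3 alone, in the first comparison and for any difference. Differences in the set are given below as log2 fold changes, the fitted log2 ratio of the first group named to the second, with their standard errors (SE).

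The levels of many of these genes differed widely between libraries of the same group. Over the 12 libraries the highest value was 10.8 times the lowest for Egr2, 7.84 times for Fos, 6.18 times for Atf3, 4.52 times for Arc and 4.44 times for Npas4. It was at least 3-fold for 8 of the 36 genes and under 2-fold for 13. The SD of log2(CPM + 0.5) within groups had a median of 0.32 over the set, against 0.16 over the 15982 tested genes of at least 1 CPM on average. For 13 of the 36 genes this SD was above that of at least 90% of those genes, led by Egr2 (1.01), Fos (0.90), Arc (0.86) and Npas4 (0.84). Ier5 was the steadiest, with an SD of 0.085 and a range of 1.39-fold over all libraries. Differences between group means took a median of 10.7% of a gene's variance in the set, against 19.3% over the same 15982 genes. Ier5 (71.0%), Atf3 (57.7%) and Dusp5 (56.3%) had the highest such shares in the set, while Arc had 1.07%.

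**Figure D1:**
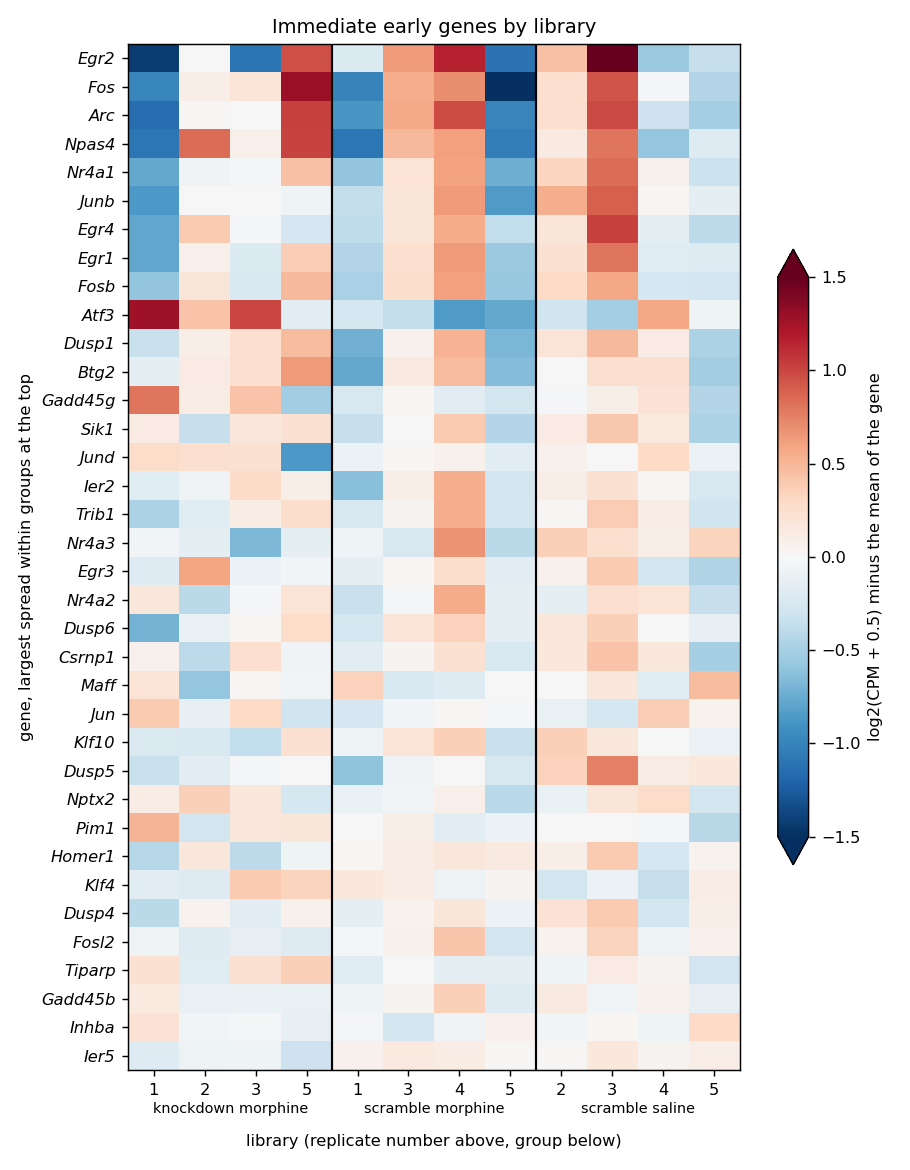
Each row is 1 of the 36 genes, from the largest spread within groups at the top to the smallest at the bottom, and each column is 1 library, with the 3 groups side by side. Colour gives log2(CPM + 0.5) minus the mean of the gene over the 12 libraries. Knockdown replicate 1, scramble morphine replicates 1 and 5 and scramble saline replicate 5 are blue in most of the upper rows, and scramble morphine replicate 4 and scramble saline replicate 3 are red there.

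High and low libraries were found in every group. Scramble saline replicate 3 held the highest value of 12 of the 36 genes and scramble morphine replicate 4 that of 8. Knockdown replicate 1 held the lowest value of 12 genes. The median deviation of the 36 genes from their means over the libraries was -0.19, -0.043, 0.013 and 0.074 on the log2 scale in the knockdown replicates 1, 2, 3 and 5. It was -0.24, 0.068, 0.36 and -0.28 in the scramble morphine replicates 1, 3, 4 and 5, and 0.11, 0.35, 0.022 and -0.22 in the scramble saline replicates 2, 3, 4 and 5. The widest gap within a group, between scramble morphine replicates 4 and 5, thus exceeded every difference between the group means, which were -0.036 with knockdown and morphine, -0.023 with scramble and morphine and 0.067 with scramble and saline.

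Fos (ENSMUSG00000021250, mm10 chromosome 12, 85473890 to 85477273, plus strand) encodes the AP-1 subunit that dimerises with JUN proteins. Fos was measured at 7.30, 15.9, 17.0 and 36.8 CPM in knockdown morphine libraries, 7.13, 21.9, 24.4 and 4.70 CPM in scramble morphine libraries and 17.7, 28.9, 14.5 and 10.8 CPM in scramble saline libraries. The highest and the lowest library lay in the morphine groups, and all 3 groups overlapped. Fos averaged 19.3 ± 12.5 CPM in knockdown morphine libraries, 14.5 ± 10.1 CPM in scramble morphine libraries and 18.0 ± 7.79 CPM in scramble saline libraries (SD, n = 4 each). The difference between knockdown and scramble under morphine was small against that spread (log2 fold change 0.41, SE 0.63, adjusted p = 0.844), and its 95% interval ran from 0.495-fold to 3.59-fold. The other differences were no larger (log2 fold change 0.10, SE 0.63, adjusted p = 0.981 for knockdown and morphine against scramble and saline, log2 fold change -0.31, SE 0.63, adjusted p = 0.999 for morphine against saline). For morphine against saline under scramble, every adjusted p of the set was 0.999.

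Arc (ENSMUSG00000022602, mm10 chromosome 15, 74669083 to 74672570, minus strand), which encodes a protein that takes AMPA receptors off the synaptic membrane, followed the same libraries. Arc was measured at 44.8, 101, 100.2 and 203 CPM in knockdown morphine libraries, 54.1, 148, 197 and 49.9 CPM in scramble morphine libraries and 119, 198, 80.4 and 69.7 CPM in scramble saline libraries. Knockdown replicate 1 and scramble morphine replicates 1 and 5 were the lowest 3 of the 12, and knockdown replicate 5 was the highest. The log2 fold change was 0.0025 (SE 0.60, adjusted p = 0.999) for knockdown against scramble under morphine, with an interval from 0.392-fold to 2.56-fold, so differences inside that interval could not be told from 0 at this spread, and the sign turned with library totals as the scaling (-0.044). Npas4 encodes a transcription factor that is induced by calcium entry in neurons. Npas4 was measured at 11.3, 44.2, 26.0 and 50.2 CPM in knockdown morphine libraries, 11.3, 34.8, 38.1 and 11.7 CPM in scramble morphine libraries and 27.2, 43.4, 16.4 and 21.5 CPM in scramble saline libraries. It was lowest in the same libraries as Arc, and the groups overlapped. Its differences did not pass (log2 fold change 0.46, SE 0.57, adjusted p = 0.8 for knockdown against scramble, log2 fold change 0.28, SE 0.57, adjusted p = 0.928 for knockdown and morphine against saline, log2 fold change -0.18, SE 0.57, adjusted p = 0.999 for morphine against saline).

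Across the 12 libraries the levels of these genes followed Fos closely. Pearson's r of log2(CPM + 0.5) with Fos was 0.960 for Arc (permutation p = 1e-05, adjusted 4e-05), 0.935 for Nr4a1 (permutation p = 1e-05, adjusted 4e-05), 0.914 for Npas4 (permutation p = 4e-05, adjusted 6.4e-05) and 0.887 for Egr1 (permutation p = 0.00019, adjusted 0.00022). Spearman's rho was 0.972 for Arc (permutation p = 2e-05, adjusted 5.3e-05), 0.930 for Nr4a1 (permutation p = 4e-05, adjusted 6.4e-05), 0.860 for Npas4 (permutation p = 0.00056, adjusted 0.00056) and 0.916 for Egr1 (permutation p = 0.00014, adjusted 0.00019). The 8 p-values were adjusted together, and 1e-05 is the smallest that 100000 permutations can give. Without scramble morphine replicates 1 and 5, the libraries farthest from the median of Fos, r over the other 10 was 0.974 for Arc, 0.911 for Nr4a1, 0.873 for Npas4 and 0.885 for Egr1. With the group means taken out it was 0.983 for Arc, 0.970 for Nr4a1, 0.915 for Npas4 and 0.942 for Egr1, so the relation did not rest on the groups. The labels give no batch within which it could be repeated. Taken only as a measure of likeness over the 12 libraries, which the genes share, r with Fos within groups was at least 0.7 for 15 of the other 35 genes and below 0 for 7. Apart from the genes above, Fosb (0.936), Dusp1 (0.927) and Dusp6 (0.918) had the highest values, and Inhba (-0.724), Atf3 (-0.541) and Jun (-0.421) had the lowest.

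**Figure D2:**
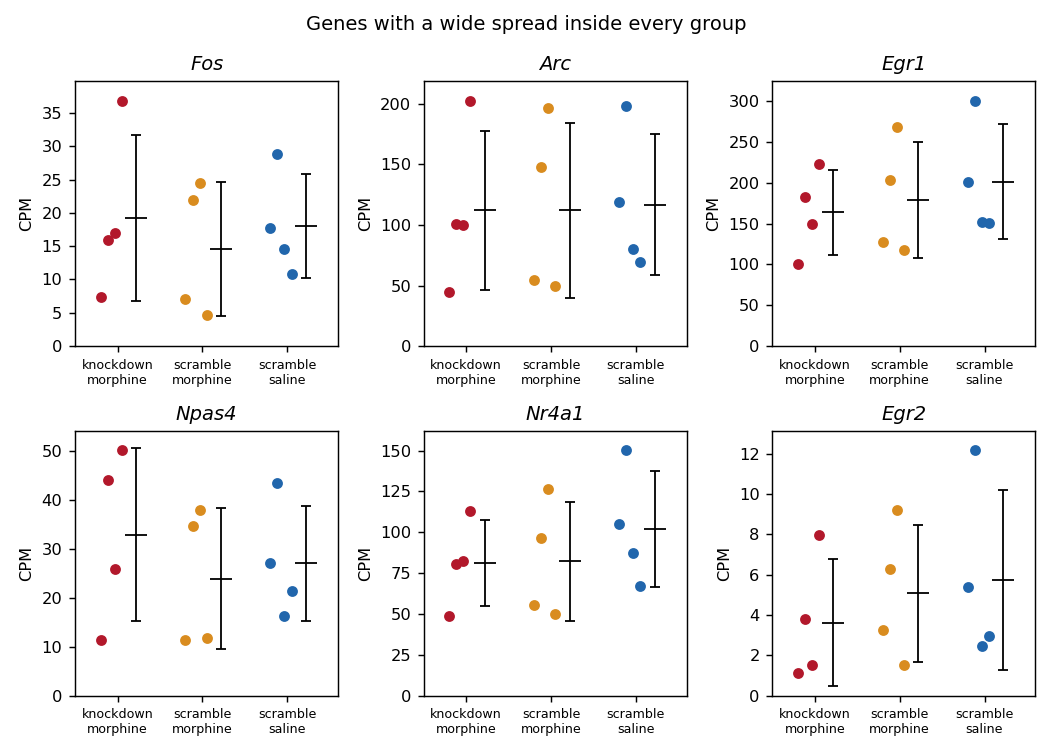
CPM of Fos, Arc, Egr1, Npas4, Nr4a1 and Egr2, with 1 point per library, black lines for the group mean and its SD, and groups from left to right as knockdown morphine, scramble morphine and scramble saline. Within a group the points spread over 2.00-fold (Egr1 with saline) to 7.09-fold (Egr2 with knockdown), and in each gene the 3 groups overlap.

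**Figure D3:**
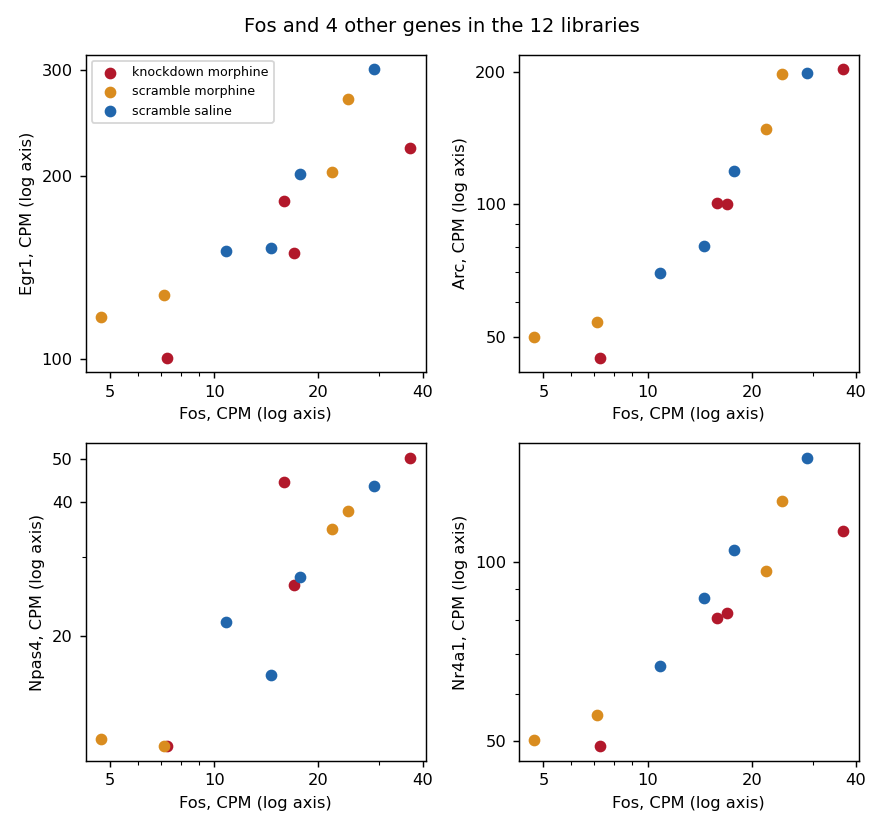
CPM of Arc, Egr1, Npas4 and Nr4a1 on the vertical axes against CPM of Fos on the horizontal axes, both logarithmic, with 1 point per library coloured by group. The points of all 3 groups lie along the same rising band, with r from 0.887 for Egr1 to 0.960 for Arc.

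Of the other AP-1 genes, Atf3 had the largest difference. Atf3 (ENSMUSG00000026628, mm10 chromosome 1, 191170296 to 191218039, minus strand) encodes a factor of the ATF family that cell stress and injury induce in neurons as well as in other cells. Atf3 was measured at 5.66, 2.93, 4.64 and 1.79 CPM in knockdown morphine libraries, 1.62, 1.49, 0.915 and 1.0 CPM in scramble morphine libraries and 1.58, 1.3, 3.32 and 1.95 CPM in scramble saline libraries. Every knockdown library was above every scramble morphine library, while knockdown replicates 2 and 5 lay inside the range of the saline group. Atf3 averaged 3.75 ± 1.72 CPM in knockdown morphine libraries, 1.26 ± 0.350 CPM in scramble morphine libraries and 2.04 ± 0.898 CPM in scramble saline libraries (SD, n = 4 each). It was 2.97-fold higher with knockdown than with scramble under morphine, with a 95% interval from 1.67-fold to 5.27-fold, and did not pass over all genes in edgeR (log2 fold change 1.57, SE 0.37, adjusted p = 0.248), whereas DESeq2 called it (adjusted p = 0.0139). Without knockdown replicate 5 the adjusted p in edgeR was 0.0249, and over the 12 fits that each left out a library it ran up to 0.564. Against the saline group the differences were log2 fold change 0.88, SE 0.36, adjusted p = 0.471 for knockdown and morphine and log2 fold change -0.69, SE 0.36, adjusted p = 0.999 for scramble and morphine.

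Within the knockdown group, both marker sums below were highest in replicates 1 and 3, as was Atf3. The summed CPM of 8 endothelial markers was 338, 246, 296 and 285 in knockdown replicates 1, 2, 3 and 5, and ran from 218 to 265 in scramble morphine libraries and from 240 to 316 in scramble saline libraries. That of 9 mural and fibroblast markers was 382, 242, 294 and 269 in the knockdown libraries, and ran from 198 to 257 in the scramble morphine libraries and from 187 to 248 in the scramble saline libraries. All 8 endothelial and all 9 mural and fibroblast markers had log2 fold changes above 0 for knockdown against scramble under morphine, with medians of 0.23 and 0.42, and none of these markers was at 0 in any library. Knockdown replicate 1 was thus highest for Atf3, for both marker sums and for the CT010467.1 share of 9.38%. Knockdown replicate 3, next highest for Atf3, had the lowest share of its group, 4.57%. In the saline group Atf3 was highest in replicate 4, at 3.32 CPM, where the endothelial sum was that group's lowest, 240. There the mural and fibroblast sum was 198, and the share was 3.58%, also the lowest of the group. With the CT010467.1 share as a covariate, the log2 fold change of Atf3 was 1.25 (adjusted p = 0.941). In that fit Ier5 and Tiparp had the same adjusted p. The share did not overlap between knockdown and scramble under morphine, and its slope in that fit came from differences within groups. The fit thus separated the share from the knockdown only as far as that slope holds across the gap between the groups. The part of the marker sums and of the share in the Atf3 result was not tested.

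**Figure D4:**
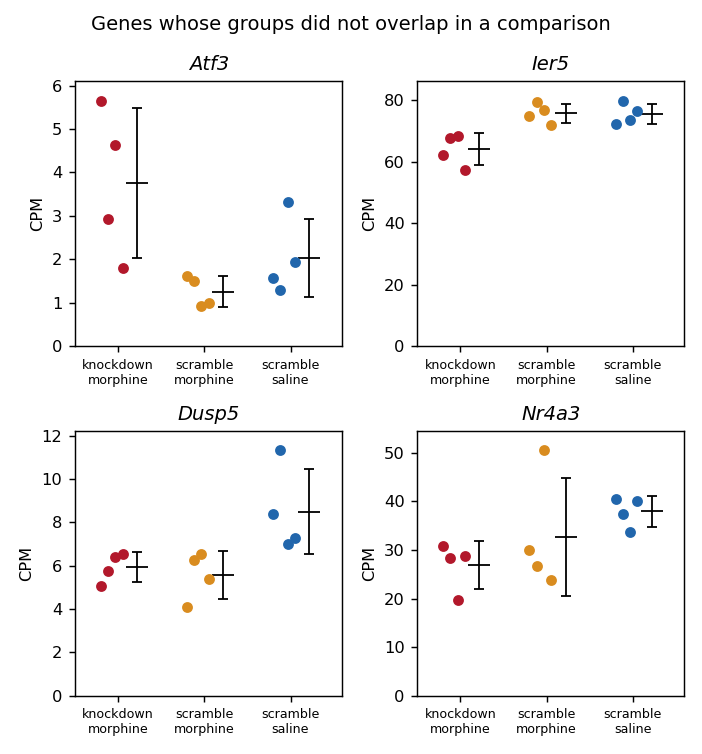
CPM in each library of Atf3, Ier5, Dusp5 and Nr4a3, the 4 genes whose groups did not overlap in at least 1 comparison, with black lines for the group mean and its SD and knockdown morphine, scramble morphine and scramble saline from left to right. The knockdown points lie above scramble morphine for Atf3 and below it for Ier5, and the saline points lie above both morphine groups for Dusp5.

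The FOS and JUN relatives separated the groups less. Fosb, which makes a long-lived splice form in chronically stimulated neurons, ran from 10.1 to 22.0 CPM with knockdown, from 10.3 to 23.9 CPM with scramble and morphine and from 12.6 to 23.5 CPM with scramble and saline. Fosl2 was measured at 24.9, 22.4, 23.7 and 22.4 CPM in knockdown morphine libraries, 25.4, 27.1, 34.5 and 21.2 CPM in scramble morphine libraries and 26.7, 32.8, 24.4 and 27.2 CPM in scramble saline libraries. The knockdown libraries of this FOS-related gene lay close together and inside the range of scramble morphine, with differences of log2 fold change -0.21, SE 0.13, adjusted p = 0.522 under morphine and log2 fold change -0.25, SE 0.13, adjusted p = 0.567 against saline. Junb was measured at 27.5, 50.3, 50.5 and 48.2 CPM in knockdown morphine libraries, 39.3, 57.1, 78.4 and 27.6 CPM in scramble morphine libraries and 73.4, 94.1, 51.1 and 45.3 CPM in scramble saline libraries. The saline group held the highest of these Junb values, and the difference for morphine against saline under scramble did not pass (log2 fold change -0.39, SE 0.36, adjusted p = 0.999). Jun ran from 48.6 to 78.7 CPM with knockdown, from 50.4 to 60.8 CPM with scramble and morphine and from 49.9 to 77.5 CPM with scramble and saline. Jund, an AP-1 subunit that cells make without stimulation, was 80.4 CPM in knockdown replicate 5 and from 132 to 181 CPM in the other 11 libraries. Maff, a small MAF protein without an activation domain, stayed between 1.32 and 3.26 CPM. All 8 AP-1 genes had log2 fold changes below 0 for morphine against saline under scramble, from -0.69 for Atf3 to -0.041 for Fosl2, and none of the 8 passed. The count was also 8 with the other scalings, and 5 without scramble saline replicate 3.

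The EGR zinc-finger factors had mean levels from 1.42 CPM per kb of exon for Egr2 to 40.5 CPM per kb for Egr1, and SDs within groups, on the log2 scale above, from 0.32 for Egr3 to 1.01 for Egr2. Egr1 was measured at 100.4, 182, 149 and 223 CPM in knockdown morphine libraries, 127, 204, 268 and 117 CPM in scramble morphine libraries and 202, 301, 152 and 151 CPM in scramble saline libraries. Scramble saline replicate 3 was the highest and knockdown replicate 1 the lowest, and Egr1 averaged 164 ± 51.9 CPM in knockdown morphine libraries, 179 ± 70.8 CPM in scramble morphine libraries and 201 ± 70.4 CPM in scramble saline libraries (SD, n = 4 each). Its differences were log2 fold change -0.13, SE 0.35, adjusted p = 0.925 for knockdown against scramble, log2 fold change -0.30, SE 0.35, adjusted p = 0.849 for knockdown and morphine against saline and log2 fold change -0.17, SE 0.35, adjusted p = 0.999 for morphine against saline. Egr2, best known as a regulator of myelinating Schwann cells, had the widest range of the set: from 1.13 to 7.99 CPM with knockdown, from 1.53 to 9.20 CPM with scramble and morphine and from 2.46 to 12.2 CPM with scramble and saline. Egr3, which in mice is needed for muscle spindles, ran from 121 to 209 CPM with knockdown, from 125 to 168 CPM with scramble and morphine and from 101 to 183 CPM with scramble and saline. Egr4 ran from 14.5 to 33.1, from 19.2 to 37.3 and from 19.1 to 51.7 CPM in the same order of groups.

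Of the NR4A orphan nuclear receptors, Nr4a1 had the highest level per kilobase of exon, 25.2 CPM per kb against 5.43 for Nr4a3 and 1.51 for Nr4a2, and followed Fos. Nr4a1 was measured at 48.9, 80.5, 82.3 and 113 CPM in knockdown morphine libraries, 55.3, 96.7, 127 and 50.2 CPM in scramble morphine libraries and 105, 150.1, 87.2 and 66.9 CPM in scramble saline libraries. The groups overlapped, with differences of log2 fold change -0.016, SE 0.37, adjusted p = 0.991 for knockdown against scramble, log2 fold change -0.33, SE 0.37, adjusted p = 0.84 for knockdown and morphine against saline and log2 fold change -0.32, SE 0.37, adjusted p = 0.999 for morphine against saline. Nr4a3 was measured at 30.7, 28.4, 19.7 and 28.8 CPM in knockdown morphine libraries, 30.1, 26.6, 50.5 and 23.8 CPM in scramble morphine libraries and 40.5, 37.4, 33.7 and 40.1 CPM in scramble saline libraries. Every knockdown library of Nr4a3 was below every saline library, while scramble morphine reached both above and below the saline range. Nr4a3 averaged 26.9 ± 4.92 CPM in knockdown morphine libraries, 32.7 ± 12.1 CPM in scramble morphine libraries and 37.9 ± 3.12 CPM in scramble saline libraries (SD, n = 4 each). It was 0.709 times the saline level with knockdown and morphine (log2 fold change -0.50, SE 0.21, adjusted p = 0.496). The difference from scramble morphine was log2 fold change -0.28, SE 0.21, adjusted p = 0.631, and without scramble morphine replicate 4 it was 0.0020. For morphine against saline under scramble it was log2 fold change -0.21, SE 0.21, adjusted p = 0.999. Nr4a2, a factor needed by midbrain dopamine neurons, ran from 4.43 to 7.00 CPM with knockdown, from 4.69 to 9.10 CPM with scramble and morphine and from 4.64 to 7.23 CPM with scramble and saline.

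Among the other transcription factors, Klf4 and Klf10 are Krüppel-like zinc-finger proteins. Klf4 ran from 4.25 to 6.67 CPM with knockdown, from 4.67 to 5.57 CPM with scramble and morphine and from 3.77 to 5.36 CPM with scramble and saline. Its differences from the saline group were log2 fold change 0.29, SE 0.18, adjusted p = 0.651 with knockdown and morphine and log2 fold change 0.22, SE 0.18, adjusted p = 0.999 with scramble and morphine. Klf10, which TGF-beta induces, ran from 19.0 to 29.0 CPM with knockdown and from 23.2 to 31.7 CPM with scramble and saline (log2 fold change -0.25, SE 0.16, adjusted p = 0.662). Csrnp1, a nuclear protein first known as an axin-induced gene, ran from 8.49 to 16.5 CPM over all libraries. Its locus overlaps Cx3cr1, a microglial gene on the same strand, and its counts are uncertain for that reason.

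Ier5 stood out from the set by how little it varied. The gene (ENSMUSG00000056708, mm10 chromosome 1, 155096361 to 155099636, minus strand) encodes a nuclear protein known from other cells as a regulator of heat shock factor HSF1 through the phosphatase PP2A. Ier5 was measured at 62.2, 67.8, 68.4 and 57.4 CPM in knockdown morphine libraries, 74.8, 79.3, 76.9 and 72.1 CPM in scramble morphine libraries and 72.3, 79.8, 73.5 and 76.5 CPM in scramble saline libraries. Every knockdown library was below every library of both scramble groups, and the scramble groups covered the same range. Ier5 averaged 64.0 ± 5.20 CPM in knockdown morphine libraries, 75.8 ± 3.08 CPM in scramble morphine libraries and 75.5 ± 3.37 CPM in scramble saline libraries (SD, n = 4 each). It was 0.844 times the level of scramble morphine, with a 95% interval from 0.762 to 0.935 (log2 fold change -0.24, SE 0.065, adjusted p = 0.264), and 0.847 times that of scramble saline, with an interval from 0.764 to 0.938 (log2 fold change -0.24, SE 0.065, adjusted p = 0.33). These comparisons share the knockdown libraries. The adjusted p for knockdown against scramble was between 0.0899 and 0.571 over the fits that left out each library in turn, and 0.0707 in DESeq2. Markers of several cell types had log2 fold changes below 0 as well. All 8 oligodendrocyte markers were below 0 against scramble morphine, with a median of -0.38 and summed CPM from 1157 to 1987 with knockdown and from 1813 to 2476 with scramble and morphine. Of the 8 microglial markers 7 were below 0, with a median of -0.24 and summed CPM from 393 to 586 with knockdown and from 489 to 714 with scramble and morphine, and 8 of the 10 markers of excitatory neurons were below 0, with a median of -0.17. In knockdown replicates 1, 2, 3 and 5 the oligodendrocyte sums were 1646, 1157, 1987 and 1953 and the microglial sums 563, 393, 586 and 522. Both sums were thus lowest in replicate 2. The sums of the excitatory neuron markers were 2295, 2669, 2387 and 2196 in the same replicates, lowest in replicate 5, as was Ier5. None of these markers was at 0, and their part in the Ier5 result was not tested.

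Of the other growth and stress regulators 0 passed, and for knockdown against scramble under morphine their log2 fold changes ran from -0.10 for Trib1 to 0.46 for Gadd45g. Tiparp was measured at 14.0, 10.4, 13.9 and 15.3 CPM in knockdown morphine libraries, 10.4, 11.9, 10.7 and 10.7 CPM in scramble morphine libraries and 11.3, 13.0, 12.2 and 9.64 CPM in scramble saline libraries. Tiparp, a mono-ADP-ribosyltransferase, was higher in 3 of the 4 knockdown libraries than in every scramble morphine library (log2 fold change 0.30, SE 0.13, adjusted p = 0.379), and against saline its difference was log2 fold change 0.22, SE 0.13, adjusted p = 0.629. Gadd45g was measured at 19.2, 11.7, 14.8 and 7.36 CPM in knockdown morphine libraries, 9.10, 11.0, 9.54 and 8.88 CPM in scramble morphine libraries and 10.7, 11.6, 12.6 and 7.86 CPM in scramble saline libraries. Gadd45g, a stress sensor that binds kinases of the p38 and JNK cascade, was highest in knockdown replicate 1 and lowest in knockdown replicate 5 (log2 fold change 0.46, SE 0.23, adjusted p = 0.442). Its relative Gadd45b, which takes part in DNA demethylation in active neurons, ran from 8.98 to 10.9 CPM with knockdown, from 8.44 to 12.6 CPM with scramble and morphine and from 8.95 to 10.8 CPM with scramble and saline. Btg2, an antiproliferative cofactor of mRNA deadenylation, ran from 16.9 to 29.1 CPM with knockdown and from 10.7 to 26.0 CPM with scramble and morphine (log2 fold change 0.37, SE 0.29, adjusted p = 0.656). Ier2 ran from 5.40 to 12.8 CPM and the pseudokinase Trib1 from 18.1 to 37.3 CPM over all libraries, each with its highest value in scramble morphine replicate 4.

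Among the phosphatases that switch off MAP kinases, Dusp5 (ENSMUSG00000034765, mm10 chromosome 19, 53529109 to 53542431, plus strand), which is nuclear and acts on ERK, had a saline group that stood apart. Dusp5 was measured at 5.05, 5.74, 6.42 and 6.52 CPM in knockdown morphine libraries, 4.11, 6.25, 6.53 and 5.39 CPM in scramble morphine libraries and 8.36, 11.3, 7.02 and 7.29 CPM in scramble saline libraries. All 8 morphine libraries were below all 4 saline libraries, whichever virus they carried. Dusp5 averaged 5.93 ± 0.681 CPM in knockdown morphine libraries, 5.57 ± 1.09 CPM in scramble morphine libraries and 8.50 ± 1.97 CPM in scramble saline libraries (SD, n = 4 each). It was 0.654 times the saline level with scramble and morphine, with a 95% interval from 0.493 to 0.868 (log2 fold change -0.61, SE 0.18, adjusted p = 0.999). It was 0.699 times the saline level with knockdown and morphine, with an interval from 0.527 to 0.927 (log2 fold change -0.52, SE 0.18, adjusted p = 0.384). Both comparisons use the same saline libraries, of which replicate 3 was the highest at 11.3 CPM. Without that replicate the log2 fold changes were -0.44 with scramble and -0.35 with knockdown. The summed CPM of 5 blood markers ran from 117 to 198 with knockdown and morphine, from 118 to 187 with scramble and morphine and from 96.9 to 415 with scramble and saline, and was highest in the same saline replicate. The part of blood in the Dusp5 result was not tested. An antisense gene overlaps the Dusp5 locus, so part of its counts could belong to it.

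For the remaining signal terminators the groups overlapped in all 3 comparisons. Dusp1, a nuclear phosphatase of p38, JNK and ERK, ran from 23.0 to 40.9 CPM with knockdown, from 17.5 to 42.1 CPM with scramble and morphine and from 20.9 to 41.1 CPM with scramble and saline, and its difference for morphine against saline was log2 fold change -0.24, SE 0.31, adjusted p = 0.999. Dusp6, a cytoplasmic phosphatase of ERK, ran from 27.4 to 54.9, from 37.6 to 57.5 and from 41.4 to 58.3 CPM in the same order. Dusp4 ran from 4.59 to 6.55, from 5.68 to 7.20 and from 5.10 to 8.41 CPM in that order (log2 fold change -0.13, SE 0.17, adjusted p = 0.999 for morphine against saline). Sik1, a salt-inducible kinase that restrains CREB coactivators, ran from 8.01 to 15.1 CPM over all libraries. Pim1, a serine/threonine kinase, ran from 3.75 to 6.84 CPM with knockdown, from 4.12 to 5.05 CPM with scramble and morphine and from 3.38 to 4.65 CPM with scramble and saline, with differences of log2 fold change 0.23, SE 0.18, adjusted p = 0.656 and log2 fold change 0.30, SE 0.18, adjusted p = 0.644 for knockdown against each of the scramble groups.

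Of the synaptic and secreted effectors other than Arc, Homer1 encodes a postsynaptic scaffold with a short activity-induced form, which counts per gene do not separate from the long forms. Homer1 was measured at 106, 161, 108 and 136 CPM in knockdown morphine libraries, 146, 154, 161 and 157 CPM in scramble morphine libraries and 152, 187, 119 and 148 CPM in scramble saline libraries. The knockdown libraries reached lower than those of scramble morphine, where the 4 values lay within 1.10-fold, but knockdown replicate 2 matched the highest of them (log2 fold change -0.27, SE 0.14, adjusted p = 0.454). The difference from saline was log2 fold change -0.25, SE 0.14, adjusted p = 0.626. Nptx2, a secreted pentraxin that gathers AMPA receptors, ran from 41.6 to 64.0 CPM with knockdown, from 37.5 to 52.7 CPM with scramble and morphine and from 41.2 to 60.4 CPM with scramble and saline, with differences of log2 fold change 0.22, SE 0.15, adjusted p = 0.573 for knockdown against scramble and log2 fold change -0.14, SE 0.15, adjusted p = 0.999 for morphine against saline. Inhba, the activin A subunit, ran from 10.1 to 13.0, from 9.10 to 11.7 and from 10.5 to 13.8 CPM in the same order of groups (log2 fold change -0.13, SE 0.12, adjusted p = 0.999 for morphine against saline).

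Per kilobase of exon, so that genes can be set against each other, the set ran from a mean of 89.8 CPM per kb for Jund to 0.871 CPM per kb for Maff. Egr1 (40.5 CPM per kb), Arc (37.2), Egr3 (32.2) and Nr4a1 (25.2) followed Jund. Atf3, with 1.09 CPM per kb, was next to last. Exon lengths are those of all transcripts of a gene together in GENCODE M21, so a gene with long unused exons reads too low.

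Counted over the whole set, knockdown against scramble under morphine gave 19 log2 fold changes above 0 and 17 below, with a median of 0.0053, against 50.7% above and a median of 0.0040 over all genes. At an unadjusted p below 0.05 stood 2 genes that were higher with knockdown (Atf3 and Tiparp), against 5.87% of all genes, and 1 that was lower (Ier5), against 6.17%. Groups did not overlap for 1 of 36 genes in the higher direction, against 2.59% of all genes, and for 1 in the lower, against 3.26%. Knockdown and morphine against scramble and saline gave 13 above and 23 below, with a median of -0.058, against 49.6% above and a median of -0.0019 over all genes. There 1 gene was higher at that p (Atf3), against 4.97%, and 3 were lower (Ier5, Dusp5 and Nr4a3), against 4.37%. The same 3 were the genes whose groups did not overlap, all in the lower direction, against 2.16% of all genes, with 0 in the higher direction, against 2.18%.

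**Figure D5:**
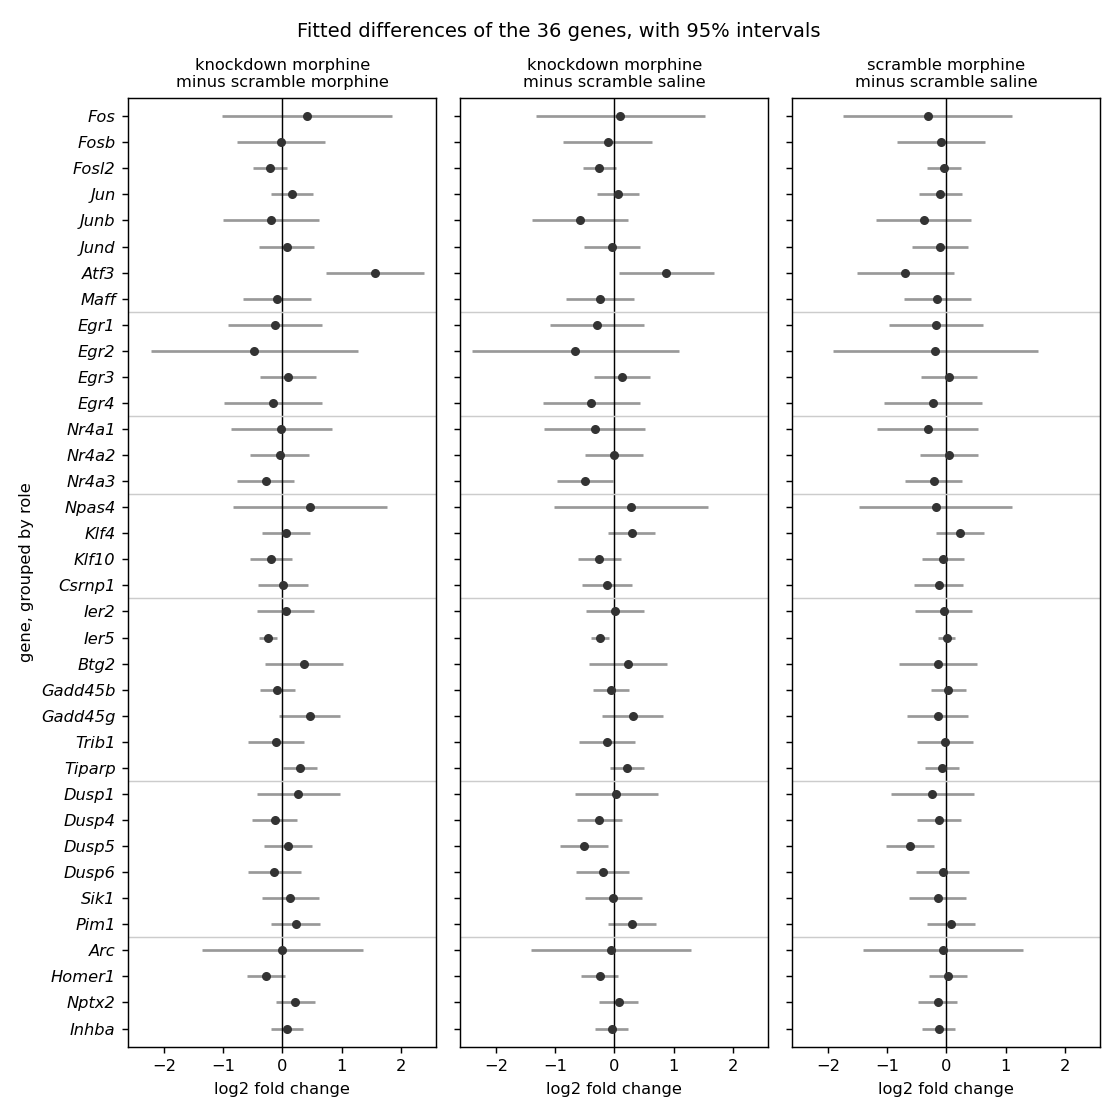
Log2 fold change of each of the 36 genes in the 3 comparisons, from left to right knockdown against scramble under morphine, knockdown and morphine against scramble and saline, and morphine against saline under scramble, with bars for the 95% interval. Most intervals cross 0 in every panel, and those of Fos, Arc, Npas4 and Egr2 are the widest.

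Morphine against saline under scramble was the most lopsided, with 7 log2 fold changes above 0 and 29 below and a median of -0.13, against 49.5% above and a median of -0.0012 over all genes. Dusp5 alone had an unadjusted p below 0.05, lower with morphine, against 1.82% of all genes, and its groups alone did not overlap, against 1.77% lower and 1.55% higher over all genes. The count depended on single libraries. Without scramble saline replicate 3 it was 19 above and 17 below, with a median of 0.0076. It was 16 above and 20 below without scramble morphine replicate 5, and 14 above and 22 below without scramble morphine replicate 1. Without scramble morphine replicate 4 it became more lopsided, with 3 above and 33 below and a median of -0.22. The first comparison also moved, to 28 above and 8 below without scramble morphine replicate 4 and to 27 above and 9 below with the CT010467.1 share as a covariate. Since the 36 genes vary together from library to library, their signs are not independent of each other.

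Genes upstream of this response, a list of 40 receptors, kinases and transcription factors, gave 0 that passed in each comparison. At an unadjusted p below 0.05 stood 3 of the 40 that were higher and 5 that were lower with knockdown than with scramble under morphine, against 5.87% higher and 6.17% lower over all genes. Crebbp, the CREB coactivator, averaged 89.7 CPM with knockdown and 75.0 CPM with scramble and morphine (log2 fold change 0.26, SE 0.071, adjusted p = 0.271). Against saline, 3 were higher and 2 lower with knockdown and morphine, against 4.97% and 4.37% of all genes, led by Nfatc4, a calcineurin-dependent factor (log2 fold change 0.77, SE 0.24, adjusted p = 0.368), and 0 stood at that p for morphine against saline under scramble, against 1.67% higher and 1.82% lower over all genes. A list of 34 other activity-induced genes also gave 0 that passed. There 4 of the 34 were higher and 2 lower at an unadjusted p below 0.05 with knockdown against scramble under morphine, against the same 5.87% and 6.17% of all genes. With knockdown and morphine against saline 2 were higher and 2 lower, against 4.97% and 4.37%. Plk2, a kinase of homeostatic synaptic scaling, averaged 159 CPM with knockdown and 208 CPM with scramble and morphine, with no overlap of the groups (log2 fold change -0.39, SE 0.095, adjusted p = 0.259), and DESeq2 called it alone of this list in that comparison (adjusted p = 0.0379). Ppp1r15a, a phosphatase subunit of the stress response, averaged 15.0 CPM with knockdown and 11.1 CPM with scramble and morphine, also with no overlap (log2 fold change 0.44, SE 0.14, adjusted p = 0.312). In that comparison groups did not overlap for 1 of the 34 in the higher direction, against 2.59% of all genes. The same held for 1 in the lower, against 3.26%.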

How the data were processed

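RNA from the mPFC of 12 libraries, 4 in each of 3 groups, was analysed from the whole-number counts per gene that the authors deposited. Per the labels' protocols, libraries were made from RNA selected on oligo(dT) beads, with dUTP in the second strand. Per the submitters' processing notes, the tools were HISAT2 2.0.4, StringTie 1.3.4d, cutadapt 1.9, edgeR and DESeq2, in roles and an order not stated, on mm10. Not given in the sources used here were the annotation release and the use of strand in counting, so genes that overlap others are uncertain, here Jun, Junb, Jund, Atf3, Csrnp1, Tiparp, Dusp1, Dusp5, Pim1, Homer1 and Inhba. Of 55401 gene IDs, 55141 matched a symbol. Gene positions and exon lengths came from GENCODE M21.

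Samples were grouped by the treatment in the labels, and the titles give their replicate numbers. The quasi-likelihood test of edgeR 4.0.16 (R 4.3.3, robust fit) was run on the deposited counts of the 21958 genes that filterByExpr kept at its default minimum of 10 counts. TMM scaled the libraries, all 12 entered 1 fit with a mean for each group and 9 residual degrees of freedom, and the biological coefficient of variation was 23.2%. Adjusted p-values are Benjamini-Hochberg values of two-sided tests over all genes, called below 0.05, and 95% intervals use the SE and 9 degrees of freedom. SD within groups was taken on log2(CPM + 0.5). Total counts per library ran from 41483220 to 65739423.

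Alternatives were DESeq2 1.42.0, limma 3.58.1 voom with sample weights, other scalings and filters, fits of the compared groups alone, with a replicate block, with the CT010467.1 share as a covariate and without each library. The main edgeR fit had been tested on simulated counts with known changes, and the alternatives and other tests had not. Chi-square tests found no pair of libraries within a group that differed by sampling noise alone. The genes of the set, the other lists, the tests and the alternatives were chosen with earlier results of these data known. In each comparison statistics are given for the 10 genes of the set with the smallest unadjusted p and always for Fos, Egr1, Arc, Npas4 and Nr4a1, and of each other list for up to 4.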

Additional observations from a re-analysis of the deposited data

Results flagged for a closer look

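Within groups of 4 libraries, 5 of 108 values of the set had a library far from the other 3, by Dixon's test of the gap over the range at the 95% level, which chance passes in about 1 in 20 groups. Junb was 27.5 CPM in knockdown replicate 1, against 48.2 to 50.5 CPM in the other knockdown libraries. Jund was 80.4 CPM in knockdown replicate 5, against 173 to 178 CPM in the others of that group. Egr3 was 209 CPM in knockdown replicate 2, against 121 to 135 CPM in the others. Gadd45b was 10.9 CPM in knockdown replicate 1, against 8.98 to 9.05 CPM in the others. Pim1 was 3.38 CPM in scramble saline replicate 5, against 4.60 to 4.65 CPM in the other saline libraries. Knockdown libraries thus held 4 of the 5.

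The share of counts at the 2 mitochondrial ribosomal RNA genes, a measure of the libraries and not of the set, stood apart in 2 libraries. It was 0.494% in knockdown replicate 3, against 0.621 to 0.628% in the other knockdown libraries, and 0.446% in scramble saline replicate 4, against 0.547 to 0.567% in the other saline libraries. With scramble and morphine the share ran from 0.394 to 0.459%, below every knockdown library.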

How the results depend on the processing

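Of the immediate early genes, Atf3 alone was called by any alternative, for knockdown against scramble under morphine: by DESeq2 (log2 fold change 1.58, adjusted p = 0.0139), which called 1 gene of the set there and 1 for any difference, and without knockdown replicate 5 (1.80, adjusted p = 0.0249). Atf3 kept its direction throughout, between 1.3 and 1.80 with each library left out, as did Ier5, between -0.28 and -0.20.

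Counts over all genes moved more. For knockdown against scramble under morphine, 0 genes were called, 164 by DESeq2, 2 without a filter on low counts, 2 with the replicate block and 0 to 375 with each library left out, 375 without knockdown replicate 5. For knockdown and morphine against saline, 3 were called, against 152 by DESeq2, 5 with the compared groups only, 5 without a filter, 0 with library totals, voom, the covariate or the replicate block, and 0 to 55 with each library left out, 55 without knockdown replicate 5. For morphine against saline, 0 were called, against 6 by DESeq2, 1 with the compared groups only and 1 with the replicate block. For any difference, 0 were called, against 156 by DESeq2, 6 without a filter and 0 to 105 with each library left out, 105 without knockdown replicate 5. The median log2 fold change of the set for knockdown against scramble was 0.25 with the covariate, against 0.0053.

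No gene whose sign turned round passed in either fit. For knockdown against scramble, the covariate gave 0.33 for Egr1 and 0.59 for Nr4a1, the replicate block 0.12 for Nr4a1, and library totals, voom and no filter gave -0.044, -0.067 and -0.0073 for Arc. For knockdown and morphine against saline, voom gave -0.29 for Fos and -0.19 for Npas4, and Arc was 0.38 with the covariate and 0.31 with the replicate block. For morphine against saline, Inhba was 0.0079 with the covariate, and Arc and Npas4 were 0.13 and 0.15 with the replicate block. With each library left out, knockdown against scramble ran from -0.41 to 0.0020 for Nr4a3, from -0.12 to 0.78 for Fos, from -0.32 to 0.13 for Egr1, from -0.46 to 0.42 for Arc and from -0.22 to 0.27 for Nr4a1. Knockdown and morphine against saline ran from -0.43 to 0.42 for Fos, from -0.52 to 0.32 for Arc and from -0.0048 to 0.60 for Npas4. Morphine against saline ran from -0.68 to 0.013 for Fos, from -0.43 to 0.093 for Egr1, from -0.48 to 0.32 for Arc and from -0.49 to 0.14 for Npas4. The cause was not tested.

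Same-numbered libraries of different groups correlated from -0.080 to 0.297 in their deviations from the group means, with a median of 0.149 over 9 pairs. The 39 pairs of other numbers ran from -0.388 to 0.330, with a median of -0.040. Whether the numbers pair the libraries was thus not settled. The labels state no pairing, so the main fit used none, and the replicate block was run as an alternative. The lowest count of the set was 38, for Atf3, and the effect of depth on these results was not tested.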
